A study of Mus musculus with 8 samples.

Results

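Urocortin 3 is a peptide hormone of the corticotropin-releasing hormone family that mature mouse beta cells store and release together with insulin. It acts on the receptor encoded by Crhr2, which in mouse islets is known from delta cells, where it promotes the release of somatostatin, and somatostatin in turn restrains insulin and glucagon secretion. Its relative urocortin, encoded by Ucn, and corticotropin-releasing hormone itself also bind the receptor encoded by Crhr1. The binding protein encoded by Crhbp holds free corticotropin-releasing hormone and urocortin. The account below covers these 5 genes (Ucn3, Ucn, Crhr1, Crhr2 and Crhbp), chosen by name from a table of 46955 uniquely named entries, in all 8 libraries. Only Ucn3, 1 of the 5, reached the level at which genes were tested, which was 1 RPKM or more in at least 2 libraries. RPKM is the number of reads of a gene scaled to its length and to the size of the library.

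The libraries came from cells sorted by flow cytometry from islets of adult mice and compared 3 populations. Per the design text the animals carried 3 alleles, namely Ins1-H2b-mCherry, a red nuclear reporter under the Ins1 promoter, Gcg-cre, a Cre recombinase under the glucagon promoter, and a floxed YFP allele that Cre switches on. Transdifferentiated cells carried both colours (2 libraries, 1 from a male and 1 from a female pool), alpha cells were YFP positive (3 libraries, 2 male and 1 female), and beta cells were mCherry positive (3 libraries, 1 male and 2 female). The same text also speaks of bitransgenic females, without saying which alleles these lacked or which libraries came from them. Islets of 10 to 12 animals were pooled by sex, cultured overnight and dissociated before the sort, so a library is a pool and not an animal. The red reporter itself follows the Ins1 promoter and the Cre follows the glucagon gene, so the sort chose cells by these genes.

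The transdifferentiated libraries were the shallowest. Reads recovered from the steps of the RPKM values came to 1244337 and 2167526 in transdifferentiated libraries, 12912856 to 14096057 in alpha libraries and 14337518 to 21397270 in beta libraries. A single read of Ucn3 was therefore worth 0.544 and 0.312 RPKM in transdifferentiated libraries, and between 0.0316 and 0.0524 RPKM in alpha and beta libraries. The defining markers followed the labels. The sums of beta cell markers were mostly Ins2 and Ins1, and those of alpha cell markers mostly Gcg. As the Ins1 and glucagon promoters drove the sort, this agreement was partly built into it. Those of beta cells (6 genes) summed to 108200 and 117500 RPKM in transdifferentiated libraries, 1045 to 1375 RPKM in alpha libraries and 148000 to 201300 RPKM in beta libraries. Those of alpha cells (5 genes) summed to 20260 and 20170 RPKM in transdifferentiated libraries, 175500 to 203900 RPKM in alpha libraries and 616.6 to 1950 RPKM in beta libraries. Delta cell markers (6 genes) summed to 3097 and 2968 RPKM in transdifferentiated libraries, 1371 to 3198 RPKM in alpha libraries and 312.5 to 891.4 RPKM in beta libraries. Most of each of these sums was Sst.

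Ucn3 (ENSMUSG00000044988.7) lies on the minus strand of chromosome 13, at chr13:3940688-3945349 in GRCm38, and no annotated gene overlaps it. The 250 bases before its start (chr13:3945350-3945599, minus strand) are shown because this gene carries the finding, and those before Ins1 (chr19:52264047-52264296, plus strand) because the ratio of Ucn3 to Ins1 varied far less across the libraries than Ucn3 itself, as described further on. Both are RefSeq sequences on GRCm38.p6, written 5′ to 3′, and capitals mark TAAT on either strand (ATTA where it lies on the other strand), the core that many homeodomain factors bind.
Ucn3: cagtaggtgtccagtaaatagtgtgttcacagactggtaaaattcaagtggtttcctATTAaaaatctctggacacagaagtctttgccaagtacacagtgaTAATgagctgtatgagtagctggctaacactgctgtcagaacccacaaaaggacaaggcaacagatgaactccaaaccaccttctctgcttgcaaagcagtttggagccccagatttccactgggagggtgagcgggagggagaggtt
Ins1: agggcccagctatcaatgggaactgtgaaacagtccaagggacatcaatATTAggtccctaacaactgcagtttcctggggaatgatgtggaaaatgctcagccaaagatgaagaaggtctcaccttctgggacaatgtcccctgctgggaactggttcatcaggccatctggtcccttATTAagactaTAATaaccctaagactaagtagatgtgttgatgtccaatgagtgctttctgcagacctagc
The Ucn3 window held TAAT at 2 places, starting 193 and 148 bases before the gene start, and the Ins1 window held it at 3 places, starting 201, 71 and 61 bases before it. Of 27025 mouse promoter windows of the same length, 55.3% held at least 1 TAAT, 31.2% at least 2 and 17.8% at least 3. The E-box CANNTG, the letters bound by factors such as Neurod1, occurred at 2 places in the Ucn3 window and at 2 in the Ins1 window, and 31.7% of all windows held at least 2. Neither window held TATAAA (13.0% of windows), TGACGTCA (1.62%) or TGCTGAC (3.72%), all read on both strands. These letters are common and their presence is a description of the windows. Among the other 4 genes, the Ucn window held 1 TGACGTCA, the core of a cyclic AMP response element, 44 bases before the start. The Crhr2 window held 1 TATAAA, 39 bases before the start, and 1 CANNTG. The Crhbp window held 3 TAAT and 1 CANNTG, although this gene had almost no reads. The window of Pcsk1, the gene nearest to Ucn3 in profile further on, held 1 TAAT, 0 CANNTG and 1 TGACGTCA. TAAT and CANNTG thus did not follow the expression of these genes.

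Ucn3 was abundant in transdifferentiated and in beta cells and low in alpha cells. Its level was 162.6 and 135.8 RPKM in transdifferentiated libraries, which rested on 299 and 435 reads. It was 1.73, 2.07 and 1.97 RPKM in alpha libraries, from 33, 41 and 41 reads. It was 205.5, 217.3 and 281.9 RPKM in beta libraries, from 5668, 6873 and 5974 reads. The 3 groups did not overlap, with every transdifferentiated library below every beta library and far above every alpha library. The order of the group means was beta, transdifferentiated, alpha, and each neighbouring pair in that order differed by more than the spread within its groups. The means were 149.2 ± 18.9 RPKM in transdifferentiated cells (SD, n = 2), 1.92 ± 0.173 RPKM in alpha cells (SD, n = 3) and 234.9 ± 41.1 RPKM in beta cells (SD, n = 3). Counted from the most abundant gene of a library, Ucn3 stood at place 127 and 166 in transdifferentiated libraries, 10391, 10367 and 10561 in alpha libraries, and 100, 92 and 70 in beta libraries. These are bulk libraries, in which fewer cells with Ucn3 and less Ucn3 RNA per cell cannot be told apart.

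**Figure D1:**
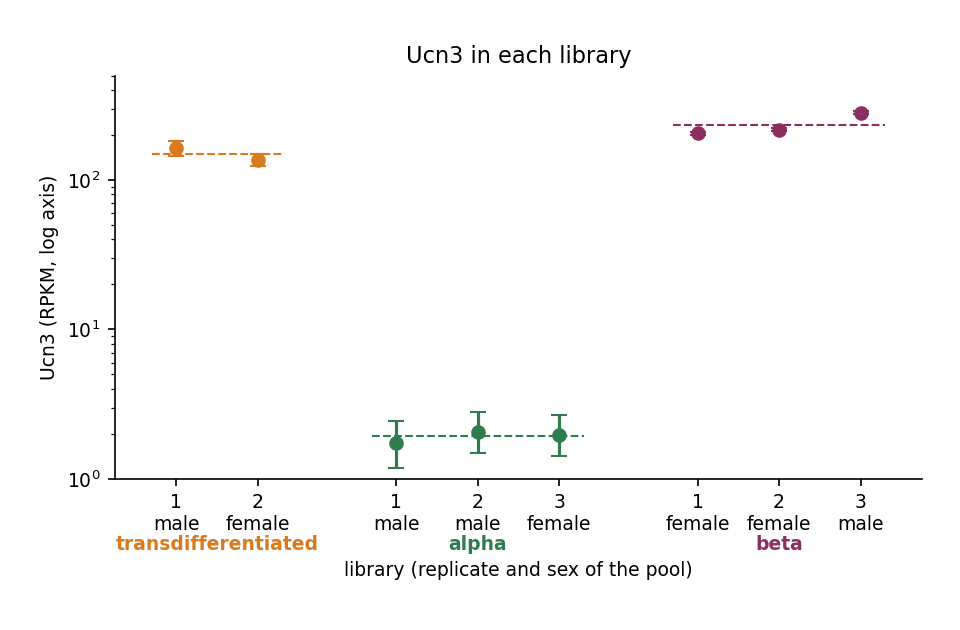
Ucn3 RPKM (log axis) in each of the 8 libraries, with the replicate number and the sex of the pool below each point, exact 95% Poisson intervals of the recovered reads as bars (counting error only) and group means as dashed lines. The 2 transdifferentiated libraries sit at 162.6 and 135.8 RPKM, just under the beta libraries at 205.5 to 281.9 RPKM, while the alpha libraries lie near 2 RPKM.

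Transdifferentiated cells held less Ucn3 than beta cells. Against the beta mean, the transdifferentiated libraries were at 69.2% and 57.8%, a mean of 63.5% ± 8.06 (SD, n = 2). In limma's moderated test across 13172 genes, with the sex of the pool as a term, the log2 fold change of Ucn3 was -0.68 (SE 0.13, 95% interval -0.98 to -0.37, Benjamini-Hochberg adjusted p = 0.023), lower in 2 of 2 libraries. In this comparison 12.0% of all tested genes were called at an adjusted p under 0.05, with 9.1% higher and 2.9% lower in transdifferentiated cells. The median log2 fold change over all tested genes was 0.09. Median-ratio scaling of the table moved that median by -0.16, and Ucn3 then stood at -0.85 (adjusted p = 0.0113). The share of calls that were higher in transdifferentiated cells was 75.8% with the deposited scaling, 47.1% after median-ratio scaling and 55.2% after quantile normalization. Within each sex the order was kept, at 162.6 RPKM in the male transdifferentiated pool against 281.9 RPKM in the male beta pool (57.7%), and at 135.8 RPKM in the female transdifferentiated pool against a mean of 211.4 RPKM in the female beta pools (64.2%).

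The call between transdifferentiated and beta cells was lost when any 1 of their 5 libraries was left out. The log2 fold change was -0.71 (adjusted p = 0.0686) without transdifferentiated replicate 1, -0.64 (adjusted p = 0.073) without transdifferentiated replicate 2, -0.73 (adjusted p = 0.0504) without beta replicate 1, -0.69 (adjusted p = 0.0533) without beta replicate 2 and -0.55 (adjusted p = 0.0986) without beta replicate 3, all with limma. With only these 5 libraries in the fit it was -0.65 (adjusted p = 0.0671). The direction held in all 18 alternatives tried, between -0.85 and -0.53, and the test was passed in 12 of them. The 95% Poisson intervals of the 2 transdifferentiated libraries were 144.7 to 182.1 and 123.3 to 149.1 RPKM, both below the lowest beta library. A letter b of unstated meaning stands in the titles of replicates 2 and 3 of both alpha and beta cells, and in neither transdifferentiated title. Among libraries without it, Ucn3 was at 162.6 and 135.8 RPKM in transdifferentiated cells and at 205.5 RPKM in beta replicate 1, and with the letter as a further term the log2 fold change was -0.53 (limma adjusted p = 0.0332).

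Against alpha cells the difference was of another order. Ucn3 was 63.2-fold higher in transdifferentiated than in alpha cells on the log2(RPKM + 0.5) scale (log2 fold change 5.98, SE 0.13, limma adjusted p = 2.29e-06), higher in 2 of 2 libraries. It was 101-fold lower in alpha than in beta cells (log2 fold change -6.66, SE 0.12, limma adjusted p = 4.67e-07), lower in 3 of 3 libraries. Of all tested genes 29.9% were called between transdifferentiated and alpha cells (23.2% higher and 6.67% lower in transdifferentiated cells) and 43.6% between alpha and beta cells (in alpha cells 16.9% higher and 26.7% lower), and both comparisons share the alpha libraries. In each of them only 2 of the 13172 genes, Ins1 and Ins2, had a larger fold change in the same direction than Ucn3. The alpha mean was 0.818% of the beta mean, or 0.67% within the male pools and 0.93% within the female pools. All 18 alternatives kept both calls. The median over all genes was 0.17 between transdifferentiated and alpha cells and -0.05 between alpha and beta cells, and median-ratio scaling moved it by -0.22 and 0.06. With it, the share of calls that were higher was 49.3% in place of 77.6% between transdifferentiated and alpha cells, and 47.9% in place of 38.8% between alpha and beta cells.

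The sex of the pool did not give a difference that passed the test. Ucn3 was lower in female than in male pools by a log2 fold change of -0.20 (SE 0.10, 95% interval -0.45 to 0.04, limma adjusted p = 0.843), where 0.0456% of all tested genes were called. The female pools were the lower ones among transdifferentiated libraries (135.8 RPKM, against 162.6 RPKM in the male pool) and among beta libraries (205.5 and 217.3 RPKM, against 281.9 RPKM in the male pool). Among alpha libraries the female pool, at 1.97 RPKM, lay between the male pools at 1.73 and 2.07 RPKM.

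Set against the insulin genes within each library, Ucn3 varied far less than its level did. A ratio of this kind does not depend on how a library was scaled. Per 1000 RPKM of Ins2, which with Ins1 encodes mouse insulin, Ucn3 stood at 1.87 and 1.44 RPKM in transdifferentiated libraries, 1.65, 1.90 and 2.40 RPKM in alpha libraries, and 1.45, 1.87 and 1.79 RPKM in beta libraries. The 3 ranges overlapped, although the Ucn3 level itself ran from 0.740% of the beta mean in an alpha library to 120% of it in a beta library. Per 1000 RPKM of Ins1 the values were 7.78 and 5.88 RPKM in transdifferentiated libraries, 6.91, 7.56 and 9.25 RPKM in alpha libraries, and 5.86, 6.85 and 6.47 RPKM in beta libraries. Here the alpha libraries lay above all beta libraries, the lowest alpha value (6.91) being next to the highest beta value (6.85), and the transdifferentiated libraries overlapped with both. The highest ratio to either insulin gene was that of alpha replicate 3, which had the least Ins2 of all libraries (819.7 RPKM). Ins2 was at 63.0% and 68.1% of its beta mean in transdifferentiated libraries and at 0.757%, 0.787% and 0.593% in alpha libraries, beside the sums of beta cell markers given above. What part beta cell RNA in the alpha sort had in the alpha values was not tested. Ins1 and Ins2 are close paralogs that could share reads, so the split between them is uncertain.

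**Figure D2:**
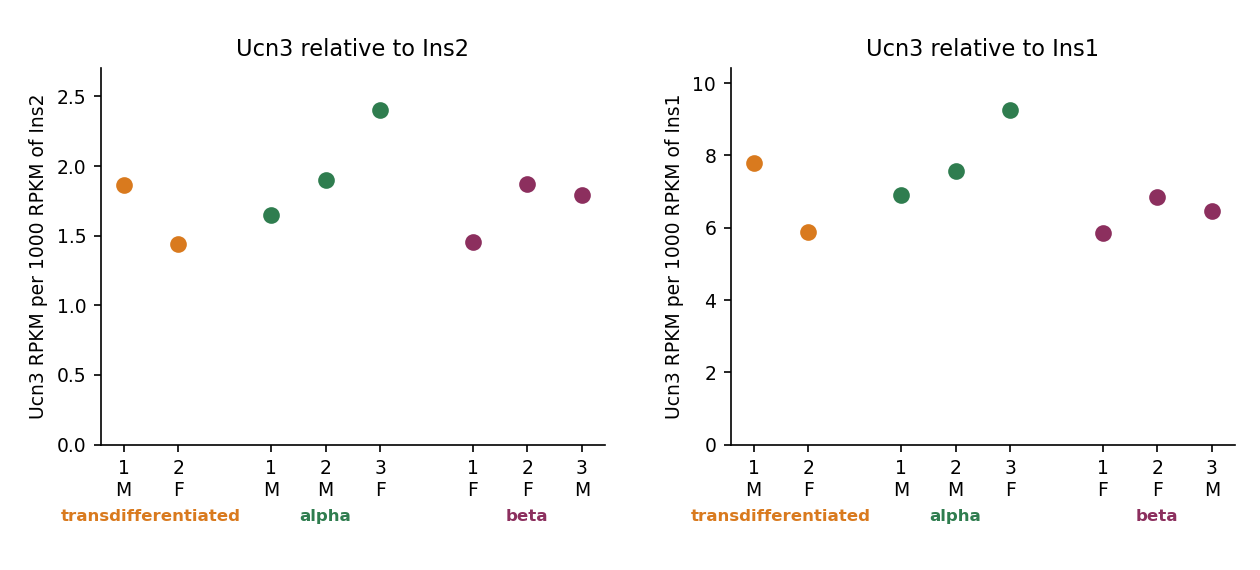
Ucn3 RPKM per 1000 RPKM of Ins2 (left) and of Ins1 (right) in each library, linear axes from 0, with the replicate number and the sex of the pool (M male, F female) below each point. The ratio to Ins2 runs from 1.44 to 2.40 and the ranges of the 3 groups overlap, whereas for Ins1 the alpha libraries lie above the beta libraries, by little between the nearest 2 (6.91 and 6.85).

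Ratios to other beta cell genes also varied far less than the Ucn3 level did, so this was not particular to the insulin genes. The order of the groups in these ratios was mixed. Relative to Sytl4, which encodes the granule protein granuphilin, Ucn3 was at 4.13 and 2.84 in transdifferentiated libraries, 1.75 to 2.93 in alpha libraries and 1.91 to 3.01 in beta libraries, and the 3 ranges overlapped. Relative to the convertase gene Pcsk1 it was at 1.44 and 1.33 in transdifferentiated libraries, 0.865 to 1.01 in alpha libraries and 0.970 to 1.65 in beta libraries, with no overlap between transdifferentiated and alpha libraries. Relative to Glp1r, which encodes the receptor of the incretin GLP-1, Ucn3 was at 1.47 and 1.41 in transdifferentiated libraries, 0.760 to 0.944 in alpha libraries and 1.33 to 2.07 in beta libraries. Relative to G6pc2, an islet glucose-6-phosphatase subunit, it was at 0.339 and 0.231 in transdifferentiated libraries, 0.0590 to 0.0811 in alpha libraries and 0.165 to 0.277 in beta libraries. The ratios to Glp1r and G6pc2 were lower in all alpha libraries than in any other. Relative to Mafa, whose product drives transcription in mature beta cells, the ratio was 3.83 and 2.74 in transdifferentiated libraries, 1.51 to 2.31 in alpha libraries and 1.22 to 2.65 in beta libraries, so here the transdifferentiated libraries stood above all others.

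The genes whose profile over the 8 libraries was nearest to that of Ucn3 were mostly known beta cell genes. The measure was the Euclidean distance in log2(RPKM + 0.5) after each gene was centred on its own beta mean, over 4812 genes with a beta mean of at least 10 RPKM, whose median distance was 10.96. The nearest was Pcsk1 (0.889), the prohormone convertase that takes part in proinsulin cleavage. Ins2 (1.08) and Ins1 (1.18) followed, then Sytl4 (1.23), Mafa (1.54), Prss53 (1.54), Glp1r (1.59), Fam151a (2.01), Pdyn (2.16), which encodes the opioid precursor prodynorphin, and G6pc2 (2.30). As these genes were picked for their values in these libraries, the values are a description and carry no test of likeness. Their transdifferentiated means were 34.8% (Mafa) to 70.2% (Glp1r) of their beta means, beside 63.5% for Ucn3, and their alpha means were 0.667% (Ins1) to 2.33% (G6pc2), beside 0.818% for Ucn3. Prss53, Fam151a and Glp1r overlap other annotated genes on the opposite strand, whose reads cannot be told apart in unstranded libraries.

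**Figure D3:**
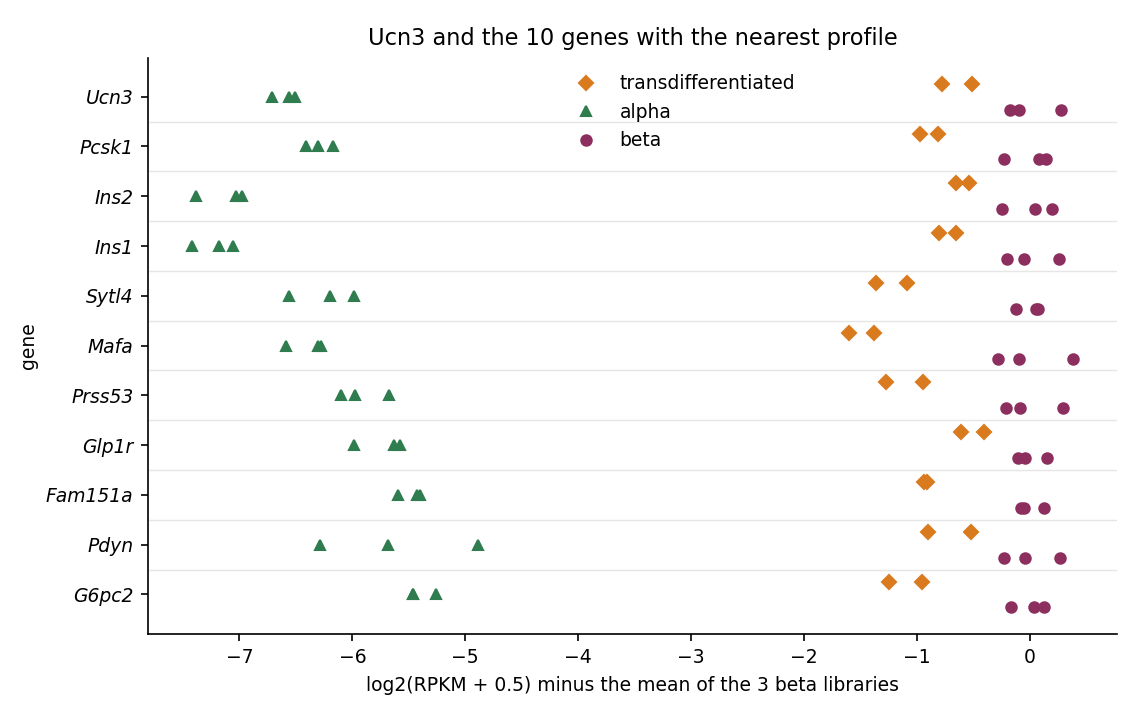
Log2(RPKM + 0.5) minus the mean of the 3 beta libraries for Ucn3 and the 10 genes with the nearest profile, one row a gene in order of distance, one symbol a library (diamonds transdifferentiated, triangles alpha, circles beta). All of them lie at -7.42 to -4.89 in alpha libraries and at -1.60 to -0.41 in transdifferentiated libraries.

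Among genes enriched in beta cells, Ucn3 had a middling level in transdifferentiated cells. There were 98 genes, Ucn3 among them, that were called between alpha and beta cells with a log2 fold change of 3 or more in favour of beta cells and a beta mean of 10 RPKM or more. Their transdifferentiated mean was at a median of 60.1% of the beta mean, with quartiles of 46.8% and 77.0%. At 63.5%, Ucn3 had 55 of these genes below it and 42 above it. Of the 98, 10 had an alpha mean under 1% of the beta mean, Ucn3 among them. These values share the beta libraries with the choice of the genes and were not tested.

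**Figure D4:**
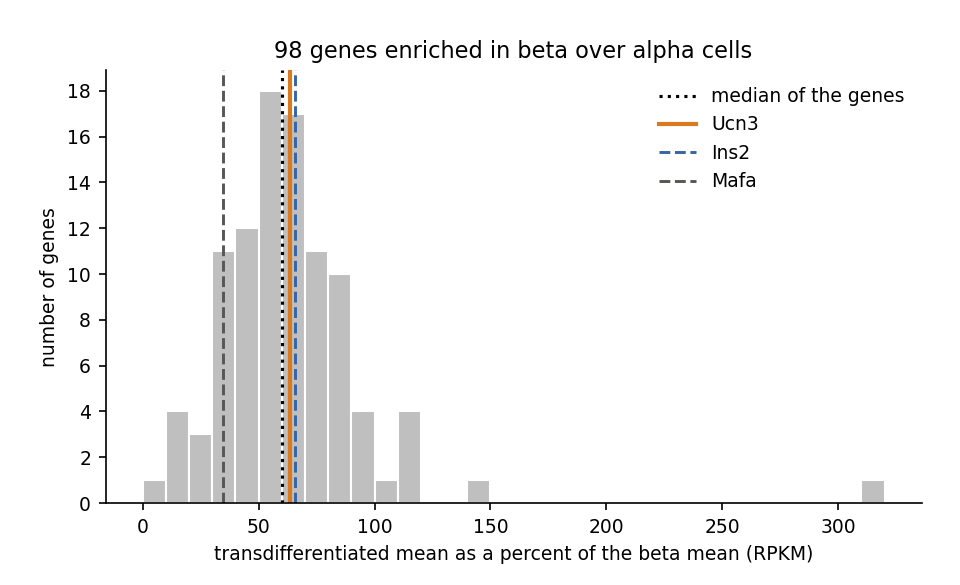
Number of genes (bars, 10 percentage points wide) by their transdifferentiated mean as a percent of their beta mean, for the 98 genes enriched in beta over alpha cells. Ucn3 (solid line, 63.5%) lies beside Ins2 (65.5%) and near the median (dotted line, 60.1%), while Mafa (34.8%) lies lower.

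Of the ligands other than Ucn3, none had more than 1 read in any library. Ucn (ENSMUSG00000038676.6, chr5:31138063-31138829, minus strand) had 0 reads in all 8 libraries. A count of 0 allows up to 3 reads by the one-sided limit used here, which is 4.78 and 2.75 RPKM in transdifferentiated libraries, 0.422 to 0.461 RPKM in alpha libraries and 0.278 to 0.415 RPKM in beta libraries, so the transdifferentiated libraries could not have shown a low level. The two-sided 95% intervals drawn in the plot of the low members reach higher, to 5.88 and 3.38 RPKM in transdifferentiated libraries. Corticotropin-releasing hormone (Crh) had 1 read, in beta replicate 2, and urocortin 2 (Ucn2) had 1 read, in alpha replicate 3. The limits and the intervals given here cover counting error only.

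Crhr1 (ENSMUSG00000018634.10, chr11:104132855-104175523, plus strand), the receptor gene known from mouse beta cells, was low in beta cells. No transdifferentiated or alpha library had more than 1 read of Crhr1. It had 1 and 1 reads in transdifferentiated libraries (0.327 and 0.188 RPKM), 0, 0 and 1 reads in alpha libraries (0, 0 and 0.0288 RPKM), and 16, 16 and 6 reads in beta libraries (0.349, 0.304 and 0.170 RPKM). Alpha libraries did not overlap with beta libraries. Both transdifferentiated libraries lay above every alpha library and within the beta range, but at their low depth 1 read alone sets this place. Their position in RPKM alone therefore does not tell whether the level was nearer to that of alpha or of beta cells. Over pooled reads the ratio of transdifferentiated to beta cells was 0.839 (95% interval 0.0981 to 3.25). At the beta rate 2.38 reads would fall on the depth of both transdifferentiated libraries, and at the alpha rate 0.0844 reads, where 2 were found. The alpha rate itself rests on 1 read. This depth could not show a moderate difference from beta cells. The ratio of alpha to beta cells was 0.0354 (95% interval 0.000874 to 0.209), from 1 read in alpha and 38 reads in beta libraries. By the two-sided exact permutation test over libraries the difference between alpha and beta cells had p = 0.1, the smallest p that 3 against 3 libraries allow, and that between transdifferentiated and alpha cells had p = 0.2, the smallest for 2 against 3. Between transdifferentiated and beta cells the exact permutation p was 1. Over pooled reads the ratio of transdifferentiated to alpha cells was 23.7 (95% interval 1.23 to 1398), from 2 reads against 1, an interval of counting error only. When limma was run on all genes without a filter on low values, Crhr1 was called between alpha and beta cells (log2 fold change -0.57 on the log2(RPKM + 0.5) scale, adjusted p = 0.0289) and not between transdifferentiated and alpha cells (0.55, adjusted p = 0.0521).

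Crhr2 (ENSMUSG00000003476.16, chr6:55090049-55133016, minus strand), which encodes the receptor that urocortin 3 prefers, was at a few reads everywhere. It had 1 and 0 reads in transdifferentiated libraries (0.157 and 0 RPKM), 4, 2 and 5 reads in alpha libraries (0.0606, 0.0291 and 0.0694 RPKM), and 0, 2 and 3 reads in beta libraries (0, 0.0183 and 0.0409 RPKM). Alpha and beta libraries overlapped, with alpha replicate 2 below beta replicate 3. Over pooled reads the ratio of alpha to beta cells was 2.96 (95% interval 0.948 to 10.9) and the two-sided exact permutation p over libraries was 0.2. The exact permutation p was 0.8 between transdifferentiated and alpha cells and 0.8 between transdifferentiated and beta cells, and 1 read in the transdifferentiated libraries gives no level. Delta cell markers summed to 1371 to 3198 RPKM in alpha libraries against 312.5 to 891.4 RPKM in beta libraries, and their part in the Crhr2 reads was not tested.

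Crhbp (ENSMUSG00000021680.8, chr13:95431371-95444924, minus strand), the gene of the binding protein, had 0 reads in transdifferentiated libraries, 0 reads in alpha libraries and 1 read in each beta library (0.0318, 0.0277 and 0.0414 RPKM). The limit that a count of 0 allows, 1.43 and 0.821 RPKM in transdifferentiated libraries and 0.126 to 0.138 RPKM in alpha libraries, was above the beta values, so no difference was detectable at this depth (two-sided exact permutation p = 0.2 between transdifferentiated and beta cells and p = 0.1 between alpha and beta cells, the smallest that each allows). Compared per length, Crhr1, Crhr2 and Crhbp each stayed below 0.35 RPKM in every library, while Ucn3 was at 135.8 RPKM or more in all transdifferentiated and beta libraries.

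**Figure D5:**
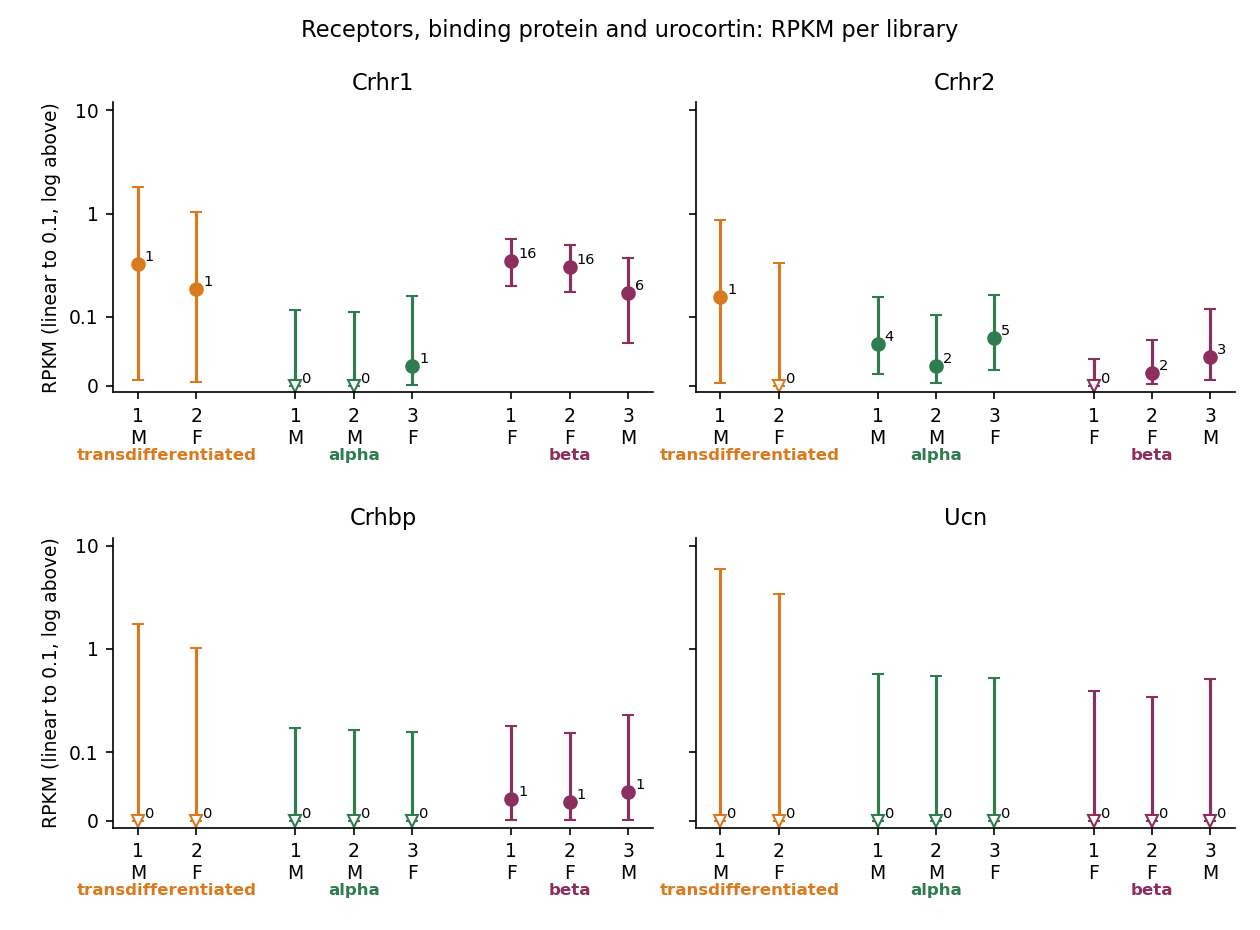
RPKM of Crhr1, Crhr2, Crhbp and Ucn in each library (linear axis up to 0.1, log above), with the recovered reads beside each point, open triangles at 0 reads, exact 95% Poisson intervals as bars and the sex of the pool as M or F. Crhr1 stands out from 0 in the beta libraries (16, 16 and 6 reads), and the intervals of the transdifferentiated libraries are the widest.

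Peptide hormones such as urocortin 3 are cut from precursors by convertases. Of the list genes named from here on, Pcsk2, Pcsk1n, Adcy5, Adcy6, Grk5, Sstr2, Slc2a2 and Cd81 also overlap genes on the opposite strand, so their levels carry the same uncertainty. Of 6 genes of peptide processing, 1 was lower in transdifferentiated than in beta cells, 0 were higher and 5 did not pass the test, beside 2.9% lower and 9.1% higher over all genes (median log2 fold change -0.08, against 0.09 over all genes). The gene that was lower was Pcsk1, with 113.3 and 101.9 RPKM in transdifferentiated libraries, 1.86, 2.05 and 2.28 RPKM in alpha libraries and 212, 220.9 and 171 RPKM in beta libraries (log2 fold change against beta cells -0.87, SE 0.12, limma adjusted p = 0.00999). Its 3 groups did not overlap, and it kept the call in all 18 alternatives. Pcsk2, the second prohormone convertase, was at 422 ± 1.08 RPKM in transdifferentiated cells (SD, n = 2), 663 ± 69.2 RPKM in alpha cells (SD, n = 3) and 392 ± 50.8 RPKM in beta cells (SD, n = 3). Against alpha cells 1 gene of the list was higher in transdifferentiated cells, again Pcsk1 (5.38), and 3 were lower: Pcsk1n (-1.01), which encodes a convertase inhibitor, Pcsk2 (-0.65) and Scg5 (-0.51), which encodes the chaperone of the Pcsk2 product. Over all genes 23.2% were higher and 6.67% lower in this comparison. The number of list genes that were lower ran from 0 to 4 over the alternatives, and Scg5 lost its call in 4, Pcsk2 in 3 and Pcsk1n in 1 of 18.

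The receptors of the family signal mainly through the stimulatory G protein and cyclic AMP. Of 23 genes of this coupling 20 were tested, and 3 were higher in transdifferentiated than in beta cells, 0 lower and 17 not past the test, beside 9.1% higher and 2.9% lower over all genes (median log2 fold change 0.03, against 0.09 over all genes). They were Gnas, which encodes the G protein subunit itself (1.41, adjusted p = 0.0025), the adenylyl cyclase gene Adcy6 (0.81, adjusted p = 0.0297) and the arrestin gene Arrb2 (0.77, adjusted p = 0.0131), all by limma. Gnas was at 9.91 and 10.7 RPKM in transdifferentiated libraries, 46.0, 48.9 and 46.3 RPKM in alpha libraries and 3.44, 4.26 and 3.19 RPKM in beta libraries, with no overlap between the groups. Its locus holds an antisense gene and other overlapping annotation, and the libraries do not mark strand, so its level is uncertain. Adcy6 lost its call in 6 and Arrb2 in 3 of 18 alternatives, and the number of genes of the list that were higher ran from 1 to 4 over the alternatives, with up to 3 lower. Against alpha cells 7 of the 20 were higher and 2 lower in transdifferentiated cells (23.2% and 6.67% over all genes). The 7 ran from 2 to 7 and the 2 from 1 to 3 over the alternatives. The 7 were led by the regulatory kinase subunit gene Prkar2b (1.99) and the receptor kinase gene Grk5 (1.51). The 2 lower genes were Gnas (-2.16) and the adenylyl cyclase gene Adcy5 (-1.01, lost in 6 of 17 alternatives). Adcy5 passed the filter on low values only through the alpha libraries (1.62, 1.91 and 1.55 RPKM). It was at 0.573 and 0.593 RPKM in transdifferentiated libraries. Its place among the lower genes was therefore partly built into the filter.

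The somatostatin gene, whose product delta cells release under urocortin 3, was detected in all 3 populations. Sst was at 2885 and 2749 RPKM in transdifferentiated libraries, 2845, 1000 and 1357 RPKM in alpha libraries and 465, 849 and 289.5 RPKM in beta libraries. Transdifferentiated libraries lay above all beta libraries and overlapped with the alpha range (log2 fold change against beta cells 2.58, SE 0.53, limma adjusted p = 0.0273), and the call was lost in 7 of 18 alternatives. Of 6 genes of the somatostatin axis 4 were tested, and 3 of them were higher in transdifferentiated than in beta cells (Sst, Sstr2 at 1.98 and Sstr1 at 1.44), with 0 lower, beside 9.1% higher and 2.9% lower over all genes. The median of the 4 was 1.71, against 0.09 over all genes, and the number higher ran from 1 to 3 over the alternatives. The remaining receptor gene Sstr3 was at 37.7 ± 2.28 RPKM in transdifferentiated cells (SD, n = 2), 22.8 ± 1.21 RPKM in alpha cells (SD, n = 3) and 39.7 ± 1.49 RPKM in beta cells (SD, n = 3). Sstr1 and Sstr2 were low in transdifferentiated cells, at 0.786 and 2.03 RPKM for Sstr1 and 1.50 and 2.37 RPKM for Sstr2, and Sstr1 lost its call in 5 of 14 alternatives. In alpha libraries Sstr1 was at 0.946, 0.837 and 1.07 RPKM and Sstr2 at 13.9, 16.9 and 16.2 RPKM. Sst, Sstr1 and Sstr2 were likewise called higher in alpha than in beta cells, and Sstr2 was called lower in transdifferentiated than in alpha cells (-2.78). Sst is also among the delta cell markers and makes up most of their sum (2885 of 3097 RPKM in transdifferentiated replicate 1), so the sum follows it by construction. Of the other tested delta cell markers, Hhex and Ghsr had, like Sst, a higher mean in transdifferentiated than in alpha cells, and Rbp4 a lower one. The part of delta or alpha cells in these values was not tested.

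Ucn3 appears late in the maturation of mouse beta cells and is used as a maturity marker. Of 13 other genes linked to maturity, 7 were lower in transdifferentiated than in beta cells, 0 higher and 6 not past the test, beside 2.9% lower and 9.1% higher over all genes (median log2 fold change -0.65, against 0.09 over all genes), and the number lower ran from 4 to 9 over the alternatives. The largest were Mafa (-1.47, adjusted p = 0.00981), Sytl4 (-1.18, adjusted p = 0.0044), the glucose transporter gene Slc2a2 (-1.17, adjusted p = 0.0285, lost in 7 of 18 alternatives) and G6pc2 (-1.08, adjusted p = 0.0057), by limma. Ucn3, at -0.68, was near the median of this list. A lower level was not particular to the list. The genes enriched in beta over alpha cells described above, most of this list among them, also had a median below their beta mean. Mafa was at 42.4 and 49.5 RPKM in transdifferentiated libraries, 1.15, 1.17 and 0.854 RPKM in alpha libraries and 169, 120.9 and 106.3 RPKM in beta libraries, again without overlap. Among genes linked to immaturity, Rbp4, which encodes a retinol carrier (2.97, adjusted p = 0.00282), and the surface protein gene Cd81 (1.20, adjusted p = 0.00879) were higher in transdifferentiated than in beta cells by limma. Cd81 was at 75.4 and 79.9 RPKM in transdifferentiated libraries, 75.6, 74.5 and 67.3 RPKM in alpha libraries and 25.7, 31.5 and 42.5 RPKM in beta libraries, so that the transdifferentiated libraries lay above all beta libraries. Both genes were likewise called higher in alpha cells relative to beta cells. Alpha cell markers summed to 20260 and 20170 RPKM in transdifferentiated libraries and to 616.6 to 1950 RPKM in beta libraries. Rbp4 is itself a delta cell marker, and these summed to 3097 and 2968 RPKM in transdifferentiated libraries and to 312.5 to 891.4 RPKM in beta libraries. The part of either cell type in these values was not tested. All 13 maturity genes were called higher in transdifferentiated than in alpha cells, beside 23.2% of all genes (median log2 fold change 4.29). All 13 were called lower in alpha than in beta cells, beside 26.7% of all genes (median -5.30). Both counts ran from 11 to 13 over the alternatives. The list holds beta cell markers such as Ins1, whose promoter drove the sort, so these differences were partly built into the sort.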

How the data were processed

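RNA of 8 sorted islet cell libraries was sequenced after TruSeq RNA v2 preparation, which does not mark strand, per the labels' protocols. STAR 2.5, featureCounts, edgeR 3.14.0 and GRCm38.p4 are named in the submitters' processing notes. The authors deposited 1 table of RPKM values with 46959 entries, of which 4 with repeated names were left out, whose gene annotation was not stated. Reads were recovered from the RPKM steps with GENCODE M21 exon lengths. In 78.5% of 25349 expressed genes matched by symbol the values were whole reads in every library, within 0.01 read, and the length of 6870 others was solved from their own steps. Log2(RPKM + 0.5) was tested with limma 3.58.1 in R 4.3.3 (lmFit, eBayes with trend) in 1 fit of all libraries with group and sex, over 13172 genes with at least 1 RPKM in at least 2 libraries, and called at a Benjamini-Hochberg adjusted p under 0.05. The fold changes understate changes of low genes. Low members were compared with exact permutation tests over libraries and exact Poisson intervals. The test was also run on simulated reads with known fold changes. These reads had the same spread setting for all genes and no sex or pool effect. That run therefore does not bear on the spread between the real libraries. The 5 genes and the gene lists were chosen with earlier results of these data known. The count of the list of immaturity genes is not reported here. Named list genes were up to 4 called genes with the largest change per list and comparison, and genes a member was set beside. Replicates were taken as separate pools. Titles of beta replicates 1 and 2, and of alpha replicates 1 and 2, share a number, but their reads differed far beyond counting noise (chi-square per degree of freedom 33.6 and 31.9). Whether they share a pool is not stated, and the p-values measure only the spread between these libraries, part of which may be technical.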

Additional observations from a re-analysis of the deposited data

How the results depend on the processing

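The alternatives were pseudocounts of 0.1 and 1, no filter on low values or a mean of at least 10 RPKM, median-ratio scaling, quantile normalization, limma voom on recovered reads, no sex term, a term for the letter b in the titles, only the 2 groups compared, and leaving out each library. The log2 fold change of Ucn3 kept its call in all 18 between transdifferentiated and alpha cells (5.71 to 6.24) and between alpha and beta cells (-6.94 to -6.39). Between transdifferentiated and beta cells it missed the threshold with only the 2 groups compared (-0.65) and without any 1 of the 5 libraries of these groups (-0.73 to -0.55), and kept the call without any 1 alpha library. The share of the beta mean was 56.3% with median-ratio scaling and 57.8% to 70.5% without 1 library. Genes called between transdifferentiated and beta cells numbered 877 with no filter, 485 with a mean of at least 10 RPKM, 558 with voom, 887 with only the 2 groups and 235 to 1649 without 1 library, against 1580. Between transdifferentiated and alpha cells they numbered 2002 with a mean of at least 10 RPKM, 1662 with voom and 2447 to 3735 without 1 library, against 3932. Between alpha and beta cells they numbered 2738 with a mean of at least 10 RPKM and 3117 to 6609 without 1 library, against 5743. The difference of Crhr1 in mean RPKM between transdifferentiated and beta cells, -0.017, was -0.087 to 0.052 without 1 library. That of Crhr2 was 0.059, and -0.020 to 0.137 without 1 library. Against alpha cells the Crhr2 difference was 0.026, and -0.053 to 0.104 without 1 library. Both turned negative without transdifferentiated replicate 1. All rest on a few reads. Crhr1 passed between alpha and beta cells in limma with no filter (-0.57). The causes of these changes were not tested. No paired analysis was run. The titles share no replicate number between groups, and they do not say whether populations of the same sex came from the same pool. Sex was a term of the fit. Single reads in the shallow transdifferentiated libraries limit every statement on the receptors.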
